A study of Mus musculus with 40 samples.

Results

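The genes described here are Pvalb, Calb1 and Calb2, which encode the cytosolic Ca2+-binding proteins parvalbumin, calbindin-D28k and calretinin. They were found by gene symbol among the rows of the deposited count files and make up 3 of 41388 genes in all. The libraries came from mice at 21 d of age in which Cre switches on a ribosomal protein fused to EGFP (EGFP-Rpl10a), so that ribosomes of the Cre-expressing neurons can be pulled down with anti-GFP beads (TRAP). In RBP4-TRAP mice Cre is driven by the Rbp4-Cre KL100 transgene, which marks layer 5 pyramidal neurons, and in VGAT-TRAP mice by the Slc32a1 locus, which marks GABAergic neurons of any class. Animals of both lines carried a Cre driver and the tagged protein. No further treatment is named in the labels. Each line had 5 replicates, each a pool of 2 to 3 forebrains of both sexes, and 4 fractions were taken from every pool. WCH is RNA of the whole cell homogenate, TRAP is RNA on tagged ribosomes of that homogenate, SNF is RNA of the synaptoneurosome fraction (pinched-off synaptic endings with what sediments beside them), and ST is TRAP done on the synaptoneurosomes. This gave 8 groups of 5 libraries, 40 libraries in all. The labels name the tissue cortex, whereas the dissection was of forebrain, which holds neurons of other regions too.

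Parvalbumin, calbindin-D28k and calretinin belong to the EF-hand family, in which a short loop between a pair of helices holds a Ca2+ ion. They are not enzymes: they take up Ca2+ that enters during firing and so shape how far and how long the signal lasts. Each is a classic marker of neuron classes. Parvalbumin marks fast-spiking basket and chandelier interneurons of cortex, striatum and hippocampus. Calbindin is found in many somatostatin interneurons, in upper layer pyramidal neurons and in spiny projection neurons of the striatum, and calretinin in bipolar interneurons that often make VIP, in olfactory bulb interneurons and in hilar mossy cells of the mouse. In the cerebellum, Purkinje cells make parvalbumin and calbindin, and granule cells make calretinin. In bulk RNA such as this, a lower level from fewer cells of a type and one from less RNA per cell cannot be told apart.

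Pvalb (ENSMUSG00000005716) lies at chr15:78191114-78206400 on the minus strand, Calb1 (ENSMUSG00000028222) at chr4:15881264-15908064 on the plus strand, and Calb2 (ENSMUSG00000003657) at chr8:110142539-110168206 on the minus strand, as the files give them (GRCm38 coordinates). No other annotated gene overlaps any of them in GENCODE M21. Their EF-hand loops are shown because the loops are what makes them one family, and because close relatives could share short reads. In the reading frame of 1 transcript per gene, the PROSITE EF-hand pattern found 2 loops in Pvalb (110 codons), 4 in Calb1 (261 codons) and 5 in Calb2 (271 codons). The loops that lie inside a single coding exon are printed below from the GRCm38 genome, 5′ to 3′ on the coding strand. Capitals mark codons 1, 3, 5 and 12 of the 12, those of side chains that hold the ion.
Pvalb loop 1 (exon 2, chr15:78202526-78202561): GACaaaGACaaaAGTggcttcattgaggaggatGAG
Calb1 loop 2 (exon 5, chr4:15895644-15895679): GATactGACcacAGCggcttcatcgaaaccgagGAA
Calb1 loop 3 (exon 7, chr4:15900781-15900816): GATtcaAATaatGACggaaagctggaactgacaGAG
Calb2 loop 2 (exon 3, chr8:110154653-110154688): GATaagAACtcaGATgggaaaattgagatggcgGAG
Calb2 loop 3 (exon 5, chr8:110149362-110149397): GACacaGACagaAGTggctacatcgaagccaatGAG
Calb2 loop 4 (exon 7, chr8:110148051-110148086): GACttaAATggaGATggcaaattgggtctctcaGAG
Pvalb loop 1 and Calb2 loop 3 had the same base at 28 of 36 positions, and Calb1 loop 2 and Calb2 loop 3 at 25 of 36. Over the whole coding sequence, Calb1 and Calb2 were identical at 507 of 775 aligned bases (65.4%), with no shared run over 12 bases. None of the 990, 4843 and 1691 stretches of 50 bases (the read length) in the GENCODE M21 transcripts of Pvalb, Calb1 and Calb2 occurred in a transcript of another gene. Reads of the 3 genes could therefore be told apart from each other by sequence.

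Total counts per library ran from 14259535 to 22037703 (median 17143957). After mitochondrial, rRNA and tRNA genes were left out, 8950847 to 21976631 remained, and levels are given as cpm, the count scaled to that remainder, so that 1 count was worth 0.0455 to 0.112 cpm. The lowest count of any of the 3 genes in any library was 99, for Calb2 in a VGAT SNF library. Slc32a1, the vesicular GABA transporter gene that drives Cre in VGAT-TRAP mice, was at 48.4 to 77.2 cpm in VGAT TRAP and at 1.49 to 4.99 cpm in RBP4 TRAP, with no overlap. In ST it was at 23.3 to 51.4 cpm in the VGAT line and 10.9 to 49.9 cpm in the RBP4 line, and in untagged SNF at 19.9 to 44.2 cpm over both lines. The highest of the RBP4 ST values was in replicate 4, which in this gene goes against its label. In 2 other genes it did not: Slc17a7, the vesicular glutamate transporter gene of cortical pyramidal neurons, was at 885 cpm in it and at most at 713 cpm in VGAT ST, and Sst, the somatostatin gene of interneurons, at 161 cpm against at least 349 cpm. Both were named after their values were seen. Over RBP4 ST, Slc17a7 was at 550 to 1084 cpm and Sst at 161 to 546 cpm. These ranges overlapped with those of VGAT ST, 396 to 713 cpm and 349 to 2094 cpm, so neither gene separated the lines in ST. Gad1 and Gad2, 2 further genes of GABAergic neurons, were at 171 and 98.8 cpm in RBP4 ST replicate 4. Both values lay inside the VGAT ST ranges, 137 to 450 cpm and 81.0 to 195 cpm. The ranges over RBP4 ST were 118 to 200.5 cpm and 66.4 to 98.8 cpm, so both genes overlapped between the lines in ST. Results with ST were also computed without this library. Fezf2, a layer 5 transcription factor gene, was at 79.5 to 168 cpm in RBP4 TRAP and 4.10 to 18.6 cpm in VGAT TRAP.

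RBP4 pool 5 stood apart from the other 9 pools in genes of cerebellar neurons, the cells in which all 3 genes are also made. The summed level of 13 such genes was 289 cpm in its WCH library, where the other 9 WCH libraries lay between 41.1 and 61.7 cpm. It was 378 cpm in TRAP, 293 cpm in SNF and 360 cpm in ST, against at most 100, 96.8 and 107 cpm in the other pools of both lines. Of the 13 genes, 13 were highest in this pool in WCH, 9 in TRAP, 13 in SNF and 11 in ST. Pcp2, a Purkinje cell gene, was at 27.3 cpm in WCH of pool 5 and at most at 1.28 cpm in the other WCH libraries, and Gabra6, a granule cell receptor subunit gene, at 27.5 cpm against at most 2.10 cpm. In TRAP of pool 5, Pcp2 was at 104 cpm and at most at 16.1 cpm elsewhere. Log2 fold changes of the 3 genes that involve the RBP4 line are therefore given with and without this pool, and the part of these cells in them was not tested.

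**Figure D1:**
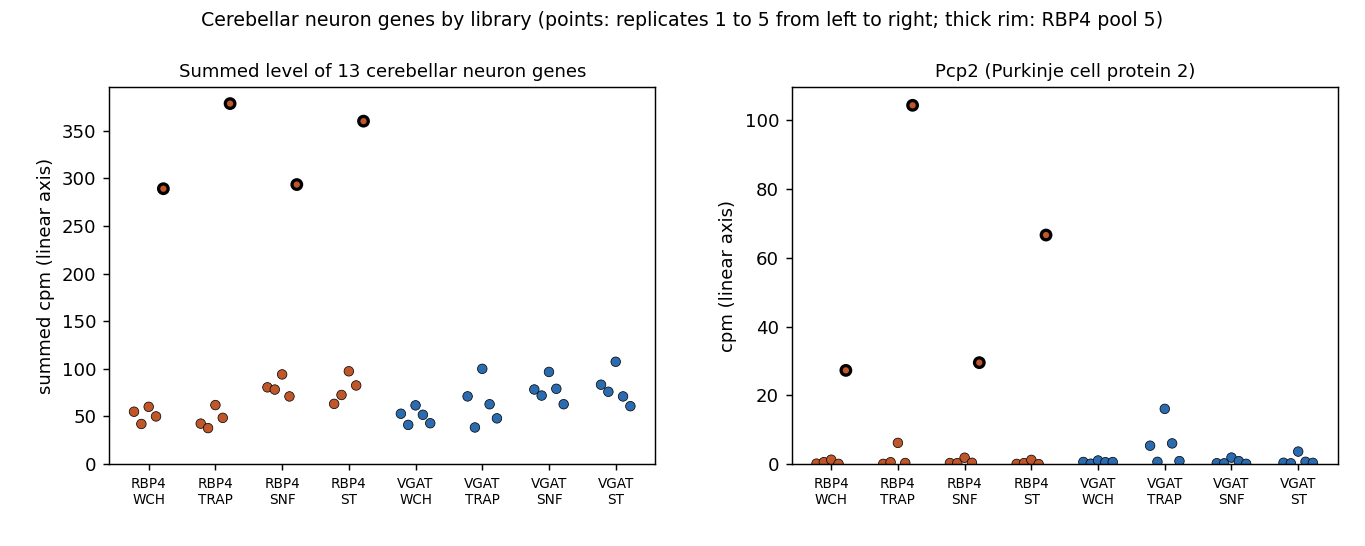
Summed level of 13 cerebellar neuron genes (left) and level of Pcp2 (right), in cpm on linear axes, in each of the 40 libraries; points are replicates 1 to 5 from left to right in each group, RBP4 line in orange and VGAT line in blue, with a thick rim on RBP4 pool 5. Pool 5 lies at 289 to 378 cpm in the sum in all 4 fractions, above every other library (at most 107 cpm).

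Pvalb was far higher in TRAP of the VGAT line than in any other group. In VGAT TRAP it was at 1882, 2340, 1517, 1741 and 1919 cpm in replicates 1 to 5, and in VGAT WCH at 222, 145, 127, 122 and 148 cpm. All TRAP libraries lay above all WCH libraries, and the first WCH library was the highest of its group. In VGAT SNF it was at 85.1, 68.1, 85.6, 62.6 and 77.0 cpm, and in VGAT ST at 52.6, 51.5, 187, 164 and 180 cpm. The ST libraries thus fell into a low pair, replicates 1 and 2, below every SNF library, and 3 libraries above them all. In RBP4 WCH it was at 148, 119, 88.4, 111 and 96.4 cpm, and in RBP4 TRAP at 29.1, 56.5, 46.6, 29.2 and 168 cpm. Replicate 5 was above every WCH library and the other 4 TRAP libraries below them all. In RBP4 SNF it was at 42.0, 60.5, 63.8, 48.7 and 86.6 cpm, and in RBP4 ST at 27.7, 34.9, 55.8, 22.8 and 159 cpm, with replicate 5 again the highest. By mean level the order was VGAT TRAP (1880 ± 302 cpm, SD, n = 5), VGAT WCH (153 ± 40.4), VGAT ST (127 ± 69.0), RBP4 WCH (113 ± 23.3), VGAT SNF (75.7 ± 10.2), RBP4 TRAP (65.8 ± 58.2), RBP4 SNF (60.3 ± 17.1) and RBP4 ST (60.1 ± 56.9). Neighbours in this order overlapped in range, except VGAT TRAP with VGAT WCH and RBP4 WCH with VGAT SNF.

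Calb1 also peaked in VGAT TRAP, but stood closer to its level in homogenate. In VGAT TRAP it was at 601, 627, 493, 509 and 485 cpm, and in VGAT WCH at 323, 307, 238, 272 and 218 cpm. These ranges did not overlap. In VGAT SNF it was at 113, 121, 69.8, 97.5 and 107 cpm, and in VGAT ST at 57.4, 64.4, 72.1, 123 and 110 cpm, with overlap. In RBP4 WCH it was at 258, 210, 211, 290 and 239 cpm, and in RBP4 TRAP at 169, 180, 148, 240 and 317 cpm, where replicate 5 was the highest and the ranges overlapped. In RBP4 SNF it was at 100.2, 90.2, 58.8, 114 and 164 cpm, and in RBP4 ST at 88.2, 72.9, 52.1, 48.8 and 259 cpm. Replicate 5 of ST was nearly 3 times the next highest. The means were 543 ± 66.1 cpm (SD, n = 5) in VGAT TRAP, 272 ± 44.5 in VGAT WCH, 242 ± 33.7 in RBP4 WCH, 211 ± 68.8 in RBP4 TRAP, 105 ± 38.4 in RBP4 SNF, 104 ± 87.9 in RBP4 ST, 102 ± 19.8 in VGAT SNF and 85.3 ± 29.1 in VGAT ST. After VGAT TRAP, each group overlapped in range with the next.

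Calb2 was highest in VGAT TRAP as well. In that group it was at 165, 108, 98.7, 157 and 118 cpm, and in VGAT WCH at 40.1, 35, 24.1, 32.7 and 22.0 cpm, without overlap. In VGAT SNF it was at 22.8, 16.2, 11.1, 18.0 and 12.1 cpm, and in VGAT ST at 19.6, 13.1, 18.5, 20.3 and 21.9 cpm, within the same range. In RBP4 WCH it was at 41.5, 36.2, 24.6, 45.5 and 98.8 cpm, so that replicate 5 was more than 2 times the next highest and reached the lowest VGAT TRAP library. In RBP4 TRAP it was at 23.1, 19.4, 13.6, 47.6 and 44.8 cpm, in RBP4 SNF at 29.6, 23.4, 14.9, 29.4 and 50.2 cpm, and in RBP4 ST at 30.9, 17.6, 14.0, 20.4 and 28.1 cpm. These 3 groups overlapped with each other. The means were 129 ± 29.7 cpm (SD, n = 5) in VGAT TRAP, 49.3 ± 28.8 in RBP4 WCH, 30.8 ± 7.58 in VGAT WCH, 29.7 ± 15.4 in RBP4 TRAP, 29.5 ± 13.0 in RBP4 SNF, 22.2 ± 7.10 in RBP4 ST, 18.7 ± 3.35 in VGAT ST and 16 ± 4.73 in VGAT SNF. Each overlapped in range with its neighbour in this order.

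**Figure D2:**
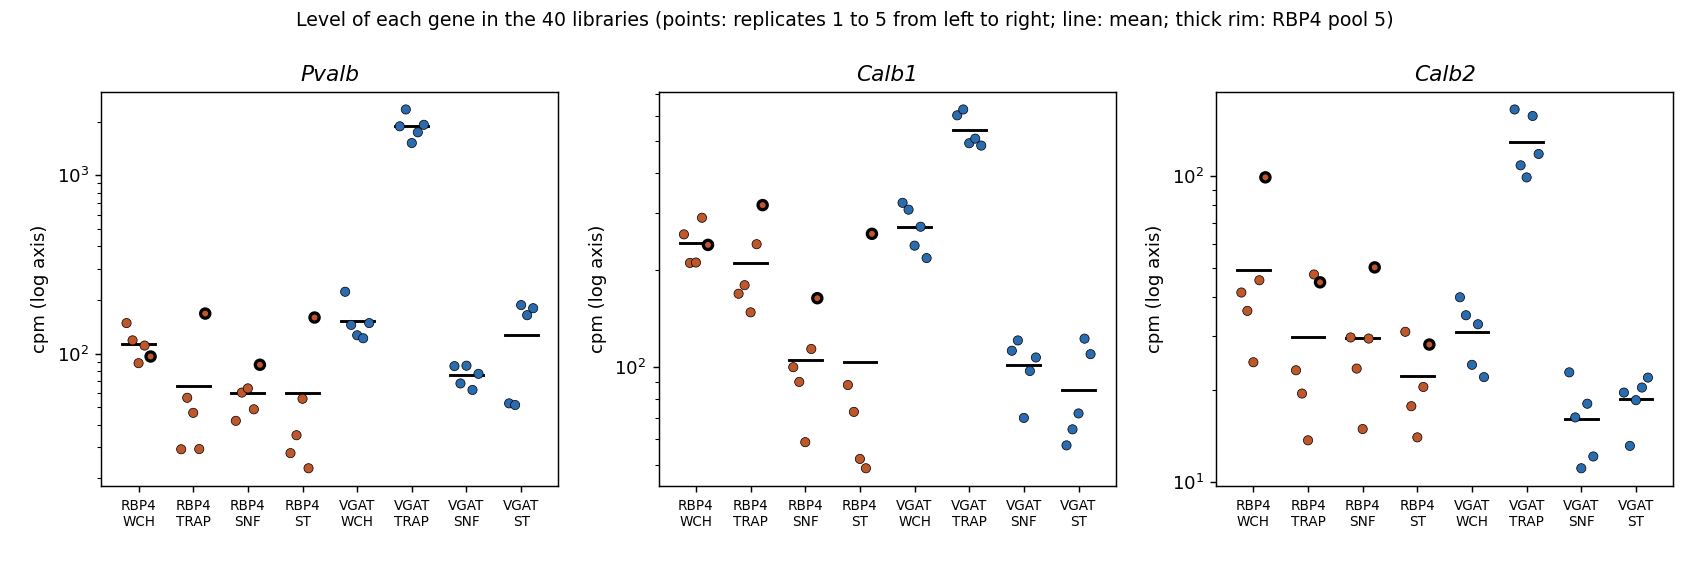
Level of Pvalb, Calb1 and Calb2 in cpm on log axes in the 8 groups; points are replicates 1 to 5 from left to right, lines are means over 5 libraries, and the thick rim marks RBP4 pool 5. VGAT TRAP is the highest group for each gene (means 1880, 543 and 129 cpm), and pool 5 is the highest RBP4 library in TRAP, SNF and ST for Pvalb and Calb1.

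Levels of different genes were compared per kilobase of the length the files give (1041 bases for Pvalb, 4846 for Calb1 and 1430 for Calb2), as cpm per kilobase. On that scale Pvalb was the highest of the 3 by mean and Calb2 the lowest in all 8 groups. The paper states that reads were strongly biased to the 3′ ends, so counts need not grow with length. The order of Pvalb and Calb1 rests on this scale. In cpm, the mean of Calb1 was above that of Pvalb in all groups but VGAT TRAP and VGAT ST. In VGAT TRAP Pvalb was at 1806 ± 290 cpm per kilobase (SD, n = 5), Calb1 at 112 ± 13.6 and Calb2 at 90.3 ± 20.7. In VGAT WCH the means were 147 ± 38.8, 56.0 ± 9.18 and 21.5 ± 5.30 cpm per kilobase, and in RBP4 TRAP 63.2 ± 55.9, 43.5 ± 14.2 and 20.8 ± 10.8. The Pvalb range of RBP4 TRAP overlaps with that of Calb1 there.

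The comparison of TRAP with WCH asks which RNAs are on ribosomes of the tagged neurons beyond their level in the homogenate. In VGAT-TRAP mice all 3 genes rose, Pvalb 12.3-fold, Calb2 4.2-fold and Calb1 2.0-fold. On the log2 scale the changes (± SE, edgeR) were 3.62 ± 0.32 for Pvalb (adjusted p = 9.80e-09), 2.07 ± 0.21 for Calb2 (adjusted p = 5.07e-08) and 1.0 ± 0.19 for Calb1 (adjusted p = 0.000128), each in 5 of 5 pools. The share of all 16990 genes tested that was higher was 21%. By size of change Pvalb was number 3 of all genes from the top, Calb2 number 159 and Calb1 number 1325. The median of all genes was -0.31 on the log2 scale, and relative to it the changes were 3.93, 2.38 and 1.31. With TMM scaling the median was -0.06, and 4987 genes were higher and 5530 lower, against 3561 and 7106 without it.

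In RBP4-TRAP mice none of the 3 genes passed the test in TRAP against WCH, where 39.9% of 17043 genes passed in either direction. Log2 fold changes (± SE, edgeR) were -0.77 ± 0.46 for Pvalb (adjusted p = 0.186), -0.73 ± 0.37 for Calb2 (adjusted p = 0.119) and -0.20 ± 0.35 for Calb1 (adjusted p = 0.680). TRAP was below WCH in 4 of 5 pools for each gene. The exception for Pvalb was pool 5. Without it, Pvalb was at -1.53 (adjusted p = 0.000135), a mean of 40.3 ± 13.6 cpm in TRAP (SD, n = 4) and 117 ± 24.8 cpm in WCH, while Calb1 was at -0.40 and Calb2 at -0.51 and neither passed. With the pool as a block, so that each TRAP library is set against the WCH of the same forebrains, Pvalb was at -1.21 (adjusted p = 0.00617) and Calb2 at -0.71 (adjusted p = 0.00653). The median of all genes was -0.34, and -0.05 with TMM scaling, which counted 3296 genes higher and 3815 lower against 1427 and 5372. Calb1 was at 0.08 with TMM (adjusted p = 0.857).

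The difference between the lines in this enrichment was tested as an interaction over 40 libraries. It was -4.39 ± 0.61 on the log2 scale for Pvalb (adjusted p = 7.11e-07, edgeR) and -2.80 ± 0.45 for Calb2 (adjusted p = 1.27e-05), RBP4 less VGAT line. For Calb1 it was -1.20 ± 0.42 (adjusted p = 0.0542), just short of the threshold. Of all genes, 7.37% passed with a difference below 0. The change of Calb1 from WCH to TRAP in the VGAT pools did not overlap with that in the RBP4 pools. With the 10 pools as a block Calb1 was at -1.29 (adjusted p = 0.00420), with TMM at -1.14 (adjusted p = 0.0403), and without RBP4 pool 5 at -1.40 (adjusted p = 0.000891). Without that pool Pvalb was at -5.15 and Calb2 at -2.58, and both passed.

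**Figure D3:**
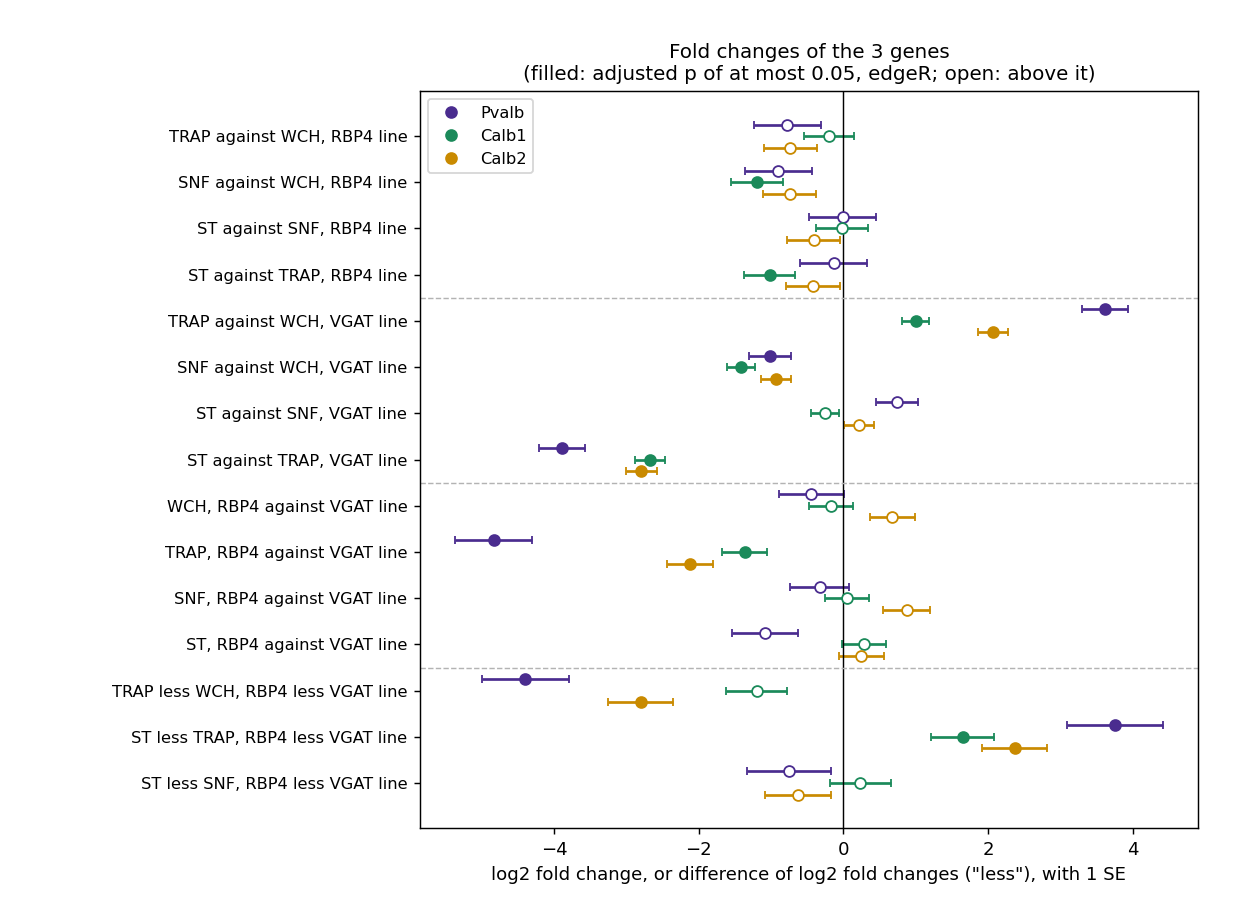
Log2 fold changes of Pvalb, Calb1 and Calb2 with 1 SE in the 15 comparisons, where "less" marks a difference of log2 fold changes; filled points have an adjusted p of at most 0.05 (edgeR) and open points do not. All 3 genes are far above 0 in TRAP against WCH of the VGAT line (1.0 to 3.62) and far below it in ST against TRAP of that line (-3.89 to -2.67).

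The TRAP libraries of the lines were also set against each other. All 3 were lower in RBP4 TRAP than in VGAT TRAP: Pvalb 28.6-fold, Calb2 4.35-fold and Calb1 2.58-fold. RBP4 against VGAT line, this was (log2 ± SE, edgeR) -4.84 ± 0.53 (adjusted p = 1.75e-08), -2.12 ± 0.32 (adjusted p = 5.58e-06) and -1.36 ± 0.31 (adjusted p = 0.00112). All 5 RBP4 libraries lay below all 5 VGAT libraries for each gene, and 15.1% of 16898 genes were lower. Pvalb was number 43 from the bottom of the list of changes, Calb2 number 560 and Calb1 number 1143. These values share their TRAP libraries with the comparisons to WCH. Without RBP4 pool 5 the changes were -5.54, -2.31 and -1.56.

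In the homogenates, no difference between the lines passed for the 3 genes, where 0.0118% of genes passed (2 of 16898). Log2 fold changes (± SE, edgeR, RBP4 against VGAT line) were -0.44 ± 0.45 for Pvalb, -0.17 ± 0.31 for Calb1 and 0.68 ± 0.31 for Calb2, each with an adjusted p of 1.0. Without RBP4 pool 5 the values were -0.39, -0.16 and 0.26.

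The SNF comparison asks what the synaptoneurosome preparation keeps of the homogenate. All 3 genes fell in SNF against WCH of the VGAT line: Calb1 2.67-fold, Pvalb 2.02-fold and Calb2 1.91-fold. In log2 units (± SE, edgeR) this was -1.42 ± 0.19 (adjusted p = 2.54e-06), -1.01 ± 0.29 (adjusted p = 0.00427) and -0.93 ± 0.21 (adjusted p = 0.000477), in 5 of 5 pools each, where 45.2% of genes were lower. The median of all genes was -0.52, so that relative to it the genes were at -0.90, -0.50 and -0.42. TMM scaling moved the median to -0.17 and the split from 3283 higher and 7680 lower to 4187 and 4747. Under it Pvalb was at -0.66 and no longer passed (adjusted p = 0.0629). With the size factors of DESeq2 in edgeR, Pvalb was at -0.56 and Calb2 at -0.47 and neither passed (adjusted p = 0.118 and 0.0574).

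In the RBP4 line, Calb1 fell 2.29-fold in SNF, and the other 2 genes did not pass. The log2 fold changes (± SE, edgeR) were -1.20 ± 0.36 for Calb1 (adjusted p = 0.00858), -0.90 ± 0.46 for Pvalb (adjusted p = 0.11) and -0.74 ± 0.37 for Calb2 (adjusted p = 0.0999), where 36.1% of genes were lower. All 5 SNF libraries were below the WCH libraries of their pools for each gene, and for Pvalb and Calb1 the ranges did not overlap. Without pool 5 the call of Pvalb changed: it was at -1.12 and passed (adjusted p = 0.00193), with Calb1 at -1.42 (adjusted p = 0.000107) and Calb2 at -0.60 (adjusted p = 0.122). With the pool as a block Pvalb was at -1.06 (adjusted p = 0.0104) and Calb2 at -0.70 (adjusted p = 0.00585). The median of all genes was -0.50 (-0.17 with TMM, which counted 3284 higher and 3048 lower against 2286 and 6161). With the size factors of DESeq2 in edgeR Calb1 was at -0.79 (adjusted p = 0.0587). Between the lines, SNF did not differ in a way that passed: the log2 fold changes were -0.33 ± 0.41 for Pvalb, 0.05 ± 0.30 for Calb1 and 0.88 ± 0.32 for Calb2 (adjusted p = 0.999 each, edgeR), where 0.0178% of genes passed. Without RBP4 pool 5 they were at -0.49, -0.16 and 0.60, and none passed.

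ST against SNF asks which RNAs are on tagged ribosomes within the synaptoneurosomes. Glial and vascular genes, of cells outside the tagged neurons, did not fall as a set. Of 13, 3 rose and 0 fell in the RBP4 line, and 4 rose and 3 fell in the VGAT line. Their sum was 29088 to 51438 cpm in VGAT ST and 20754 to 34895 cpm in VGAT SNF. Of 10 layer 5 genes, 1 rose and 0 fell in the RBP4 line. How far this pulldown removed untagged RNA was not tested. None of Pvalb, Calb1 and Calb2 passed in either line. For VGAT-TRAP mice, the changes on the log2 scale (± SE, edgeR) were 0.75 ± 0.29 for Pvalb (adjusted p = 0.0588), -0.26 ± 0.19 for Calb1 (adjusted p = 0.355) and 0.21 ± 0.21 for Calb2 (adjusted p = 0.495), and 27.5% of genes passed in either direction. Pvalb was higher in ST than in SNF in pools 3, 4 and 5 and lower in pools 1 and 2. Without pool 1 it was at 0.99 (adjusted p = 0.0156), without pool 2 at 0.91 (adjusted p = 0.0324) and without pool 4 at 0.58 (adjusted p = 0.261). The ST libraries of pools 1 and 2 were also the lowest in Sst, with 349 to 409 cpm against 1143 to 2094 cpm in the other 3. In Slc32a1, Gad1 and Gad2 the lowest ST library was that of pool 3, with 23.3, 137 and 81.0 cpm. The values were 40.9, 248 and 100 cpm in pool 1 and 45.5, 254 and 96.8 cpm in pool 2. All genes split into 2771 higher and 1905 lower, and with TMM into 1987 and 2480.

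In the RBP4 line ST and SNF were close together for Pvalb (-0.01 ± 0.46) and Calb1 (-0.02 ± 0.35), and Calb2 was at -0.41 ± 0.37 (log2 ± SE, adjusted p = 0.995, 0.984 and 0.532, edgeR), where 11.1% of genes passed. The mean of Pvalb and Calb1 in ST rested on pool 5: without it they were at 35.3 ± 14.6 and 65.5 ± 18.5 cpm (SD, n = 4) in ST, and the log2 changes were -0.61 and -0.47, with Calb2 at -0.23 (adjusted p = 0.143, 0.189 and 0.691). The interaction of line with ST against SNF was -0.75 ± 0.58 for Pvalb, 0.24 ± 0.42 for Calb1 and -0.62 ± 0.45 for Calb2 (adjusted p = 0.998 each, edgeR), and 0% of genes passed. At an unadjusted p under 0.05 there were 449 genes, and DESeq2 called 0. Without RBP4 pool 5 Pvalb was at -1.35 (unadjusted p = 0.00293, adjusted p = 1.0), Calb1 changed sign to -0.22 and Calb2 was at -0.45.

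ST against TRAP compares tagged ribosomes of synaptoneurosomes with those of the whole homogenate. In the VGAT line this was where all 3 genes fell most: Pvalb 14.8-fold, Calb2 6.93-fold and Calb1 6.37-fold. The log2 fold changes (± SE, edgeR) were -3.89 ± 0.32 (adjusted p = 8.65e-10), -2.79 ± 0.21 (adjusted p = 3.23e-10) and -2.67 ± 0.20 (adjusted p = 2.69e-10), and all ST libraries lay below all TRAP libraries. The share of all genes that was lower was 34%, and the median of all genes was 0.08. From the bottom of the list of 16990 genes, Pvalb was number 21, Calb2 number 125 and Calb1 number 151.

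In the RBP4 line only Calb1 of the 3 fell in ST against TRAP, by 1.02 ± 0.36 on the log2 scale (adjusted p = 0.0185, edgeR), where 29.1% of genes were lower. It was lower in 5 of 5 pools. The call was lost in some fits with fewer libraries. Without RBP4 pools 1, 2 or 4 the change was -1.03 ± 0.44, -0.97 ± 0.42 and -0.79 ± 0.40 (adjusted p = 0.0581, 0.0673 and 0.117). Without pools 1 or 2 the SE thus grew while the change stayed near its full value. Without the ST library of replicate 4 alone the change was -0.84 (adjusted p = 0.0556). Without pool 5 it was -1.49 (adjusted p = 1.69e-05). Pvalb was at -0.13 ± 0.46 and Calb2 at -0.42 ± 0.37 (adjusted p = 0.826 and 0.346), and without pool 5 at -0.19 and -0.32.

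This change differed between the lines for all 3 genes, as it did for most genes of the interneuron and striatal lists given below. The interaction, ST less TRAP and RBP4 less VGAT line, was 3.76 ± 0.66 for Pvalb (adjusted p = 0.000174, edgeR), 2.37 ± 0.45 for Calb2 (adjusted p = 0.000402) and 1.65 ± 0.44 for Calb1 (adjusted p = 0.0113), where 5.02% of genes were above 0 and passed. Without VGAT pool 2 Calb1 was at 1.51 and no longer passed (adjusted p = 0.0516). Without RBP4 pool 5 the values were 3.69, 2.47 and 1.18, and all 3 passed. The means show what lies behind it. Pvalb went from 1880 to 127 cpm between TRAP and ST in the VGAT line and from 65.8 to 60.1 cpm in the RBP4 line.

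In ST itself, where the lines are set against each other, no difference of the 3 genes passed. The log2 fold changes (± SE, edgeR, RBP4 against VGAT line) were -1.08 ± 0.46 for Pvalb (adjusted p = 0.364), 0.29 ± 0.31 for Calb1 (adjusted p = 0.765) and 0.25 ± 0.31 for Calb2 (adjusted p = 0.802). The share of all genes that passed was 0.325%, with 10 higher and 45 lower (15 and 36 with TMM, and 77 and 61 with DESeq2, where more were higher). The count changed when a single library or pool was left out. Without the RBP4 ST library of replicate 4 there were 33 higher and 162 lower, and without VGAT pool 5 there were 1 and 6. RBP4 pool 5 decided the value of Pvalb. Without it Pvalb was at -1.85 and passed (adjusted p = 0.0106), and Calb1 changed sign to -0.38 (adjusted p = 0.517), with Calb2 at 0.15. In the other 4 RBP4 libraries Pvalb lay at 22.8 to 55.8 cpm, and in the VGAT libraries at 51.5 to 187 cpm.

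Ratios between the genes within a library do not depend on the scaling of libraries, and were compared with exact 2-sided permutation tests over 5 against 5 libraries (252 splits, smallest p 0.00794), with adjustment over 36 tests. As ratios of levels per kilobase, the median of Pvalb over Calb1 was 15.9 in VGAT TRAP (range 14.3 to 18.4) and 2.48 in VGAT WCH (2.09 to 3.21). The log2 ratio thus differed by 2.63 (adjusted p = 0.0317, exact permutation test). Pvalb over Calb2 differed by 1.56 between these groups and Calb1 over Calb2 by -1.07, both with the same adjusted p and without overlap. Tagged ribosomes of the VGAT line therefore held more Pvalb for each Calb1 or Calb2, and less Calb1 for each Calb2, than the homogenate did. Between RBP4 and VGAT TRAP, Pvalb over Calb1 differed by -3.75 and Pvalb over Calb2 by -2.91, without overlap (adjusted p = 0.0317 each, exact permutation test). For Calb1 over Calb2 the difference was 0.84 (adjusted p = 0.0571, exact permutation test).

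From TRAP to ST of the VGAT line, Pvalb over Calb1 fell by 1.37 and Pvalb over Calb2 fell by 1.32 on the log2 scale (adjusted p = 0.0317 each, exact permutation test), while Calb1 over Calb2 differed by 0.05 (adjusted p = 0.908). Among the untagged fractions, 2 ratios differed between the lines. Pvalb over Calb2 was lower in RBP4 WCH than in VGAT WCH by 0.98, and Calb1 over Calb2 was lower in RBP4 SNF than in VGAT SNF by 0.82, each without overlap (adjusted p = 0.0317, exact permutation test). The log2 difference in WCH was -0.64 without RBP4 pool 5. With each pool left out in turn, the WCH difference passed in 4 of 10 tests and the SNF difference in 1 of 10. Between fractions of the RBP4 line, 0 of 12 ratios passed, and 1 had an unadjusted p under 0.05. This was Calb1 over Calb2 in ST against TRAP, at -0.95 (adjusted p = 0.101, exact permutation test).

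**Figure D4:**
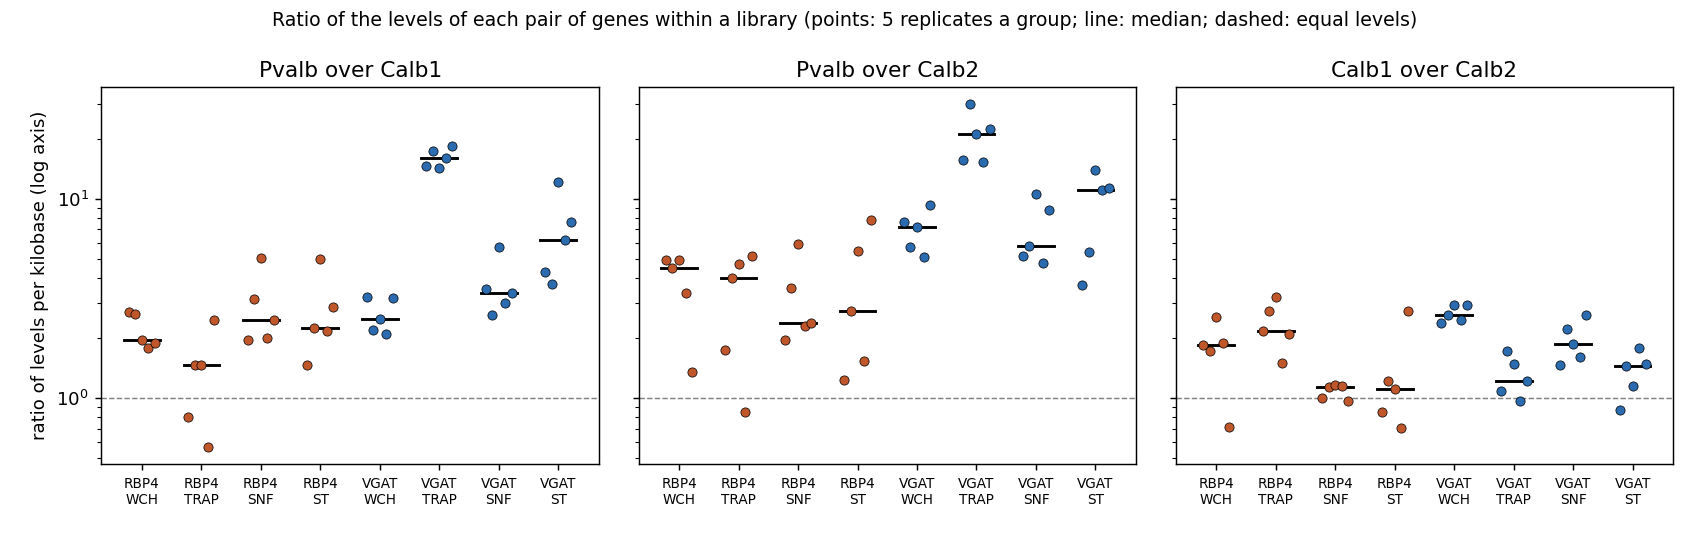
Ratio of the levels per kilobase of each pair of genes within a library, on a log axis, in the 8 groups. Points are 5 libraries a group, lines are medians and the dashed line marks equal levels per kilobase. Pvalb over Calb1 is at 14.3 to 18.4 in VGAT TRAP, above every other library (at most 12.1, in VGAT ST).

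The genes whose levels moved most like each of the 3 over the 40 libraries were found by Pearson's r of log2(cpm + 1) leaving out genes whose mean was under 5 cpm. The libraries share pools and depth, and the 5 VGAT TRAP libraries lie apart from the rest, so r is also given over the other 35. For Pvalb the nearest were Rpp25 (r = 0.946, and 0.747 over 35 libraries), Kcnip1 (0.940 and 0.748), Ido1 (0.939 and 0.702), Pcp4l1 (0.931 and 0.670) and Dlx6 (0.926 and 0.652). Kcnip1 encodes an EF-hand protein that binds Kv4 potassium channels, and Dlx6 a homeobox factor of GABAergic neurons. For Calb1 they were Kcnab1 (0.952 and 0.921), a subunit gene of Kv1 potassium channels, Cited2 (0.947 and 0.915), Lurap1l (0.947 and 0.910), Pxk (0.944 and 0.910) and Paip2 (0.944 and 0.906). For Calb2 they were Zcchc12 (0.943 and 0.855), Optn (0.892 and 0.753), Rab3b (0.891 and 0.705), Cygb (0.885 and 0.677) and Akain1 (0.877 and 0.662). The 3 genes were less alike each other: r was 0.826 for Calb1 and Calb2, 0.758 for Pvalb and Calb1 and 0.755 for Pvalb and Calb2. Over the 35 libraries these fell to 0.684, 0.526 and 0.248. Among the 10790 genes ranked by likeness to Calb2, Calb1 was number 37 and Pvalb number 179. By likeness to Calb1, Calb2 was number 876 and Pvalb number 1909. By likeness to Pvalb, Calb1 was number 152 and Calb2 number 163.

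Other genes of Ca2+ handling had no common direction in TRAP between the lines. The background there was 2183 genes higher in RBP4 TRAP and 2546 lower, of 16898 tested. Among 10 tested genes of the parvalbumin, calbindin and S100 families other than the 3, 4 were higher in RBP4 TRAP and 1 lower, with a median log2 fold change of 0.30 where that of all genes was -0.01. The examples with the smallest p were S100b (1.74 ± 0.37, SE) and S100a10 (1.03 ± 0.26). Of 31 genes of neuronal calcium sensors and other cytosolic EF-hand proteins, 9 were higher, led by Necab3 (1.45) and Kcnip3 (1.8), and 6 lower, led by Kcnip2 (-2.27) and Kcnip1 (-3.86). Of 25 genes of Ca2+ pumps, exchangers and stores, 3 were higher, with Atp2b4, a plasma membrane Ca2+ pump gene, at 1.18 and the exchanger gene Slc8a1 at 1.06, and 2 lower, with Rcn1 at -1.70 and Slc8a3 at -1.29. In ST between the lines, 0 of these 66 genes passed in edgeR and 0 in DESeq2, and 8 and 9 of them had an unadjusted p under 0.05. In TRAP against WCH of the VGAT line, where the 3 genes rose, 1 of the 10 family genes rose and 8 fell, 9 of the 31 sensor genes rose and 7 fell, and 2 of the 25 pump genes rose and 15 fell. In the RBP4 line the counts were 2 and 5, 12 and 4, and 0 and 11. The background was 3561 genes higher and 7106 lower of 16990 in the VGAT line, and 1427 and 5372 of 17043 in the RBP4 line. With TMM scaling, 5 of the pump genes rose and 10 fell in the VGAT line, and 3 rose and 7 fell in the RBP4 line. In ST against SNF, the counts of the family, sensor and pump genes were 0 and 0, 13 and 2, and 0 and 12 in the VGAT line. In the RBP4 line they were 0 and 0, 8 and 0, and 0 and 7. The background was 2771 genes higher and 1905 lower in the VGAT line, and 962 and 931 in the RBP4 line.

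Lists for the neuron classes that make the 3 proteins were counted in the same way. Of 18 parvalbumin interneuron genes (Pvalb itself left out), 16 were lower in RBP4 TRAP and 0 higher, with a median log2 fold change of -3.14. Kcnc2, a Kv3 potassium channel gene of fast-spiking cells, was at -3.38 and Lhx6, a factor of interneurons from the medial ganglionic eminence, at -4.92, so that Pvalb at -4.84 lay close to Lhx6. Of 11 somatostatin interneuron genes 11 were lower, with Lhx6 again and Elfn1 at -3.58. Of 13 VIP and calretinin interneuron genes 12 were lower, with Vip at -5.87 and Tac2 at -5.35, and Cck was higher at 1.47. Of 16 striatal projection neuron genes 15 were lower, with Rasd2 at -2.83. In VGAT TRAP against WCH, 15 of 18, 10 of 11, 11 of 13 and 15 of 16 of these genes rose and 0, 0, 2 and 1 fell, and in ST against SNF of that line 4, 3, 1 and 3 rose and 4, 2, 1 and 0 fell. In the RBP4 line 3, 0, 1 and 0 rose in TRAP against WCH and 12, 8, 11 and 13 fell, and in ST against SNF 1, 0, 0 and 2 rose and 6, 5, 5 and 2 fell. In ST between the lines 5, 3, 4 and 3 were lower in RBP4 and none higher. In ST against TRAP of the VGAT line 10, 7, 11 and 14 fell and 2, 0, 1 and 1 rose, where 34% of all genes were lower. The interaction of line with ST against TRAP passed above 0 for 14, 11, 10 and 14 and below 0 for 0, 0, 1 and 0. Of all genes, 5.02% passed above 0, so the 3 genes shared this difference with the lists.

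The remaining lists cover other cells that make calbindin, calretinin or parvalbumin or could be in the dissection. In TRAP between the lines, 5 of 10 upper layer pyramidal genes were higher in RBP4 and 1 lower (Pou3f2 at 1.43 and Cux1 at -1.09), and 7 of 10 layer 5 genes were higher and 2 lower (Etv1 at 2.19 and Bcl11b at -1.08). Of 8 hippocampal dentate and mossy cell genes 5 were higher and 1 lower, of 11 olfactory bulb genes 2 higher and 5 lower, of 11 cerebellar genes 1 higher and 3 lower, of 7 thalamic and midbrain genes 1 higher and 1 lower, and of 13 glial and vascular genes 1 higher and 3 lower. The glial and vascular genes fell in TRAP against WCH, 12 of 13 in the VGAT line and 11 of 13 in the RBP4 line, and their summed level was 456 to 2790 cpm in VGAT TRAP and 29088 to 51438 cpm in VGAT ST, which did not overlap. In that line the levels of all 3 Ca2+-binding genes moved the other way, and the part of glial RNA in the fall from TRAP to ST was not tested.

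**Figure D5:**
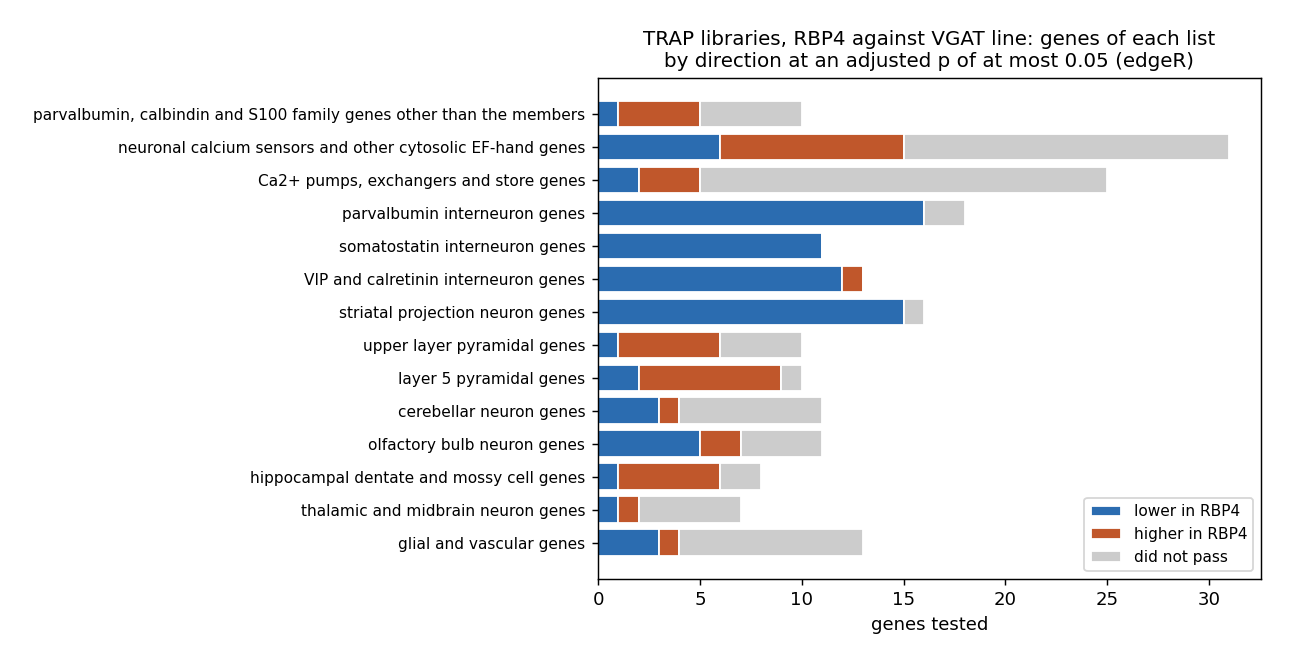
Number of tested genes of each list that were lower (blue) or higher (orange) in RBP4 TRAP than in VGAT TRAP at an adjusted p of at most 0.05 (edgeR), or did not pass (grey). Lists of GABAergic classes are nearly all blue (16 of 18, 11 of 11, 12 of 13 and 15 of 16), whereas Ca2+-handling lists hold both directions.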

How the data were processed

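RNA-seq files of 40 libraries (2 lines, 4 fractions, 5 pools each) were used, grouped by their labels. Libraries were made without strand from amplified cDNA, so that counting error is not the only technical error. The authors aligned reads of 50 bases with STAR 2.0.4b to an Ensembl mouse assembly and counted them per gene with featureCounts 1.4.5. The counts are deposited as whole numbers without normalization. The deposited CPM values are the authors' counts scaled to the library total, and the deposited RPKM values divide these by gene length. Both were used only to check the counts.

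Here, cpm values were computed after 390 mitochondrial, rRNA and tRNA genes were left out, with no further scaling factor. Symbols and biotypes came from GENCODE M21 (40340 of 41388 genes matched). The tests were those of edgeR 4.0.16 (glmQLFit, glmQLFTest, R 4.3.3), with group as the only variable, a filter of 0.5 cpm in 3 or more libraries, and Benjamini-Hochberg adjustment over all genes tested, with a threshold of 0.05. Within a line the 20 libraries were fitted, between lines 30 (WCH, TRAP, ST) or all 40. The SE is the log2 fold change divided by the square root of F. Ratios between genes used counts plus 0.5. Other steps used Python 3.11.15, numpy 2.4.6, scipy 1.17.1, pandas 2.3.3, Biopython 1.88 and matplotlib 3.10.9. The closest replicates had a chi-square of 8.42 per degree of freedom, so no library was a copy.

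The 4 samples of a number come from 1 pool, per the labels. Over genes with at least 1 cpm, deviations from group means correlated at 0.238 on average between libraries of the same pool and at -0.0592 between different pools. Between lines the labels tie no number to a shared pool.

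Alternatives were TMM factors, DESeq2 1.42.0, its size factors in edgeR, a likelihood ratio test, no genes left out, no filter, a filter of 1 cpm in 5 libraries, 40 libraries in 1 fit, the replicate block, and fits without each single pool or without the RBP4 ST library of replicate 4. The code was also run on simulated counts with 200 genes changed 2-fold. Apart from these changes, each gene had the same mean level in all libraries and all genes the same fixed spread, without pool effects. The test of TRAP against WCH in the RBP4 line found 173 with 11 false calls. Those of ST against SNF in the VGAT line, TRAP between lines and SNF between lines found 162, 165 and 155. The interaction of line with ST against TRAP found only 61, with 6 false calls. The real libraries differ from this setting, so these counts do not give the power or error rate in them.

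The 3 genes, the 14 lists and the tests were chosen with earlier results of these data known. Genes named beside the 3 are the 5 most alike each, and, of each list, up to 2 in each direction with the smallest p in TRAP between lines if their mean reached 5 cpm, of which the text gives examples. Sst, Slc17a7, Slc32a1, Gad1, Gad2, Fezf2, Pcp2 and Gabra6 are named as checks.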

Additional observations from a re-analysis of the deposited data

Results flagged for a closer look

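Screening covered 32 groups of 5 libraries (the 3 genes and the cerebellar sum in 8 groups each). In 9, a library had a gap to its neighbour that was large for the range of the group (over 0.71 of it). Chance gives about 1 in 20 for independent groups, which these are not. The 4 fractions share pools, and the cerebellar list was chosen with earlier results known, so the 9 cannot be set against that rate. In 8 of the 9 the library was from RBP4 pool 5. They were Pvalb in RBP4 TRAP (168 cpm) and RBP4 ST (159 cpm), Calb1 in RBP4 ST (259 cpm), Calb2 in RBP4 WCH (98.8 cpm), and the sum of 13 cerebellar genes in RBP4 WCH (289 cpm), TRAP (378 cpm), SNF (293 cpm) and ST (360 cpm). The same pool was thus high in cerebellar genes in all 4 fractions, while of the 3 genes Pvalb and Calb1 were not high in its WCH library (96.4 and 239 cpm). The part of cerebellar cells in these values was not tested. The 9th was Pvalb in VGAT WCH replicate 1 (222 cpm).

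The lines differed in their change from WCH to TRAP for Pvalb (log2 difference of -4.39, RBP4 less VGAT line) and Calb2 (-2.80), and in their change from TRAP to ST for Pvalb (3.76), Calb2 (2.37) and Calb1 (1.65), each by an interaction term in edgeR. These differences share the TRAP libraries and so are not independent of each other.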

How the results depend on the processing

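The changes of the 3 genes in TRAP against WCH and ST against TRAP of the VGAT line, and in TRAP between the lines, kept their direction and passed under every alternative run. Limits: the scaling of libraries decides the calls of Pvalb and Calb2 in SNF against WCH. Calb1 passed there in 14 of 14 settings in the VGAT line and in 14 of 15 in the RBP4 line. RBP4 pool 5 moves most RBP4 values, and SNF and ST libraries hold the fewest counts of Calb2 (at least 99). The cause of the changes below was not tested.

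With TMM factors, Calb1 in TRAP against WCH of the RBP4 line was at 0.081 and Pvalb and Calb1 in ST against SNF of that line at 0.021 and 0.027, all with a changed sign and none passing. Pvalb in SNF against WCH of the VGAT line was at -0.66 and did not pass, and the interaction of Calb1 in TRAP against WCH was at -1.14 and passed. With the size factors of DESeq2 in edgeR, and with DESeq2 itself, the values were 0.075 and 0.075 for Calb1 in TRAP against WCH (RBP4), 0.032 and 0.032 for Pvalb in ST against TRAP (RBP4), -0.0090 and -0.0091 for Calb1 in SNF between lines, -0.56 and -0.56 for Pvalb and -0.47 and -0.48 for Calb2 in SNF against WCH (VGAT, neither passing), and -1.18 for the Calb1 interaction (passing in both). Calb1 in SNF against WCH (RBP4) was at -0.79 in the first and did not pass. With no genes left out, Pvalb and Calb2 passed in SNF against WCH of the RBP4 line at -1.13 and -0.93, Pvalb passed in ST against SNF of the VGAT line at 0.97, and Pvalb and Calb1 in ST against SNF of the RBP4 line were at 0.21 and 0.18. A likelihood ratio test called Pvalb in ST against SNF (VGAT, 0.75) and the Calb1 interaction (-1.20), and 40 libraries in 1 fit called Calb2 in SNF against WCH (RBP4, -0.74). A filter of 1 cpm in 5 libraries, no filter, and a pseudocount of 1 count for ratios changed no call or direction.

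With the replicate block, Pvalb and Calb2 passed in TRAP against WCH (RBP4, -1.21 and -0.71) and in SNF against WCH (RBP4, -1.06 and -0.70), the Calb1 interaction in TRAP against WCH passed (-1.25, and -1.29 with the 10 pools as a block, which was added after seeing the data), and Calb1 in SNF between lines was at -0.0071. The block changed no other call. Between the lines the labels tie no number to a shared pool, and libraries of the same number and fraction correlated at 0.0505 to 0.229 on average (deviations from group means), with 2 or 3 of 5 pairs over 0.1, so the numbers were not taken as pairs there. SNF replicate 3 of both lines held the most mitochondrial counts of its group (40.2% and 41.9%, at most 19.4% in the other SNF libraries), and whether a number marks a shared day of work was not tested. A paired test of ratios could not go below p = 0.0625 (exact, 5 pairs) and so could not pass. Without the RBP4 ST library of replicate 4, Pvalb and Calb1 in ST against SNF were at 0.20 and 0.16 and Pvalb in ST against TRAP at 0.077, Calb1 in ST against TRAP (-0.84) did not pass, the Calb1 interaction (-1.20) passed, and the ratios Pvalb over Calb2 in ST against SNF (0.23) and Calb1 over Calb2 in ST between lines (0.019) changed sign.

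Leaving out each pool in turn gave these ranges where a call or a sign changed. In the RBP4 line, Pvalb ranged from -1.53 to -0.47 in TRAP against WCH, from -1.12 to -0.67 in SNF against WCH and from -0.61 to 0.14 in ST against SNF, and Calb1 from -0.47 to 0.19 in ST against SNF and from -1.49 to -0.79 in ST against TRAP. In the VGAT line Pvalb ranged from 0.58 to 0.99 in ST against SNF. Between lines, Pvalb ranged from -1.85 to -0.87 in ST, and Calb1 from -0.38 to 0.47 in ST and from -0.16 to 0.20 in SNF. The Calb1 interactions ranged from -1.40 to -1.10 (TRAP against WCH), from 1.18 to 1.89 (ST against TRAP) and from -0.22 to 0.45 (ST against SNF). For the ratios, adjusted over 36 tests, 4 against 4 libraries leave too few splits to pass within a line. Between lines, Pvalb over Calb1 and Pvalb over Calb2 in TRAP each passed in 5 of 10 tests. Pvalb over Calb2 in WCH passed in 4 of 10 and Calb1 over Calb2 in SNF in 1 of 10. Pvalb over Calb1 ranged from 2.55 to 2.75 in TRAP against WCH and from -1.66 to -1.16 in ST against TRAP (VGAT), from -4.01 to -3.48 in TRAP and from -1.54 to -1.06 in ST between lines. Pvalb over Calb2 ranged from 1.36 to 1.70 in TRAP against WCH, from -1.54 to -1.03 in ST against TRAP and from -0.19 to 0.095 in SNF against WCH (VGAT), from -0.94 to 0.046 in TRAP against WCH, from -0.50 to 0.044 in SNF against WCH, from -0.43 to 0.16 in ST against SNF and from -0.055 to 0.30 in ST against TRAP (RBP4), and from -1.11 to -0.64 in WCH, from -3.15 to -2.49 in TRAP and from -1.43 to -1.01 in SNF between lines. Calb1 over Calb2 ranged from -1.19 to -0.997 in TRAP against WCH and from -0.16 to 0.16 in ST against TRAP (VGAT), from -0.23 to 0.32 in ST against SNF (RBP4), and from -0.88 to -0.43 in WCH, from -0.91 to -0.70 in SNF and from -0.47 to 0.019 in ST between lines.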
